A study of Mus musculus with 36 samples.

Results

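The 9 genes described here belong to the Notch pathway and were chosen by name from the 27179 genes of a count table of mouse lymphoma cells. They are the receptors Notch1 and Notch2, the Fringe enzymes Lfng, Mfng and Rfng, the nuclear partners Rbpj and Maml1, and the targets Hes1 and Dtx1. The choice was made with earlier results of these libraries known, among them a large fall of Lfng in control cells given nutlin-3a. That fall is given below as a description, with no test. All 9 genes passed the filter on low counts, which kept 12321 genes, and the counts of a gene in a library ran from 28 for Hes1 to 5596 for Notch1.

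Notch receptors sit on the cell surface and are cut when a ligand on a neighbouring cell binds them. The part that is set free enters the nucleus, joins the DNA-binding protein RBPJ and a Mastermind coactivator such as MAML1, and switches on targets such as the repressor gene Hes1. Without it RBPJ holds corepressors at the same genes. Fringe enzymes add a sugar to the fucose on the outer part of the receptor, which changes how well Delta and Jagged ligands act on it. In the blood system Notch1 steers progenitors to the T cell fate, and Notch2 is needed for marginal zone B cells.

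RNA sequencing compared 3 mouse lymphoma cell lines, AH47A, 287 and 621. All have the background labelled Em-myc, a Myc transgene under an immunoglobulin heavy chain enhancer that gives B cell lymphoma. Each line carried a negative control or 1 of 5 mutant TRP53 proteins, labelled V170M, I192S, R246Q, R270H and G280. The series' design text calls these proteins human, and the species of the constructs was not tested. Each combination of line and construct was sampled untreated and after nutlin, which here means 5 µM nutlin-3a for 12 hours. Nutlin-3a frees the cells' own p53 from its inhibitor MDM2. The treated cultures also held 25 µM QVD-OPH, a broad caspase inhibitor, and the sources used here do not say whether the untreated cultures held it. Nutlin-3a and the inhibitor cannot be told apart in what is called the nutlin response. The 36 libraries form 12 groups of construct and treatment with 1 library of each line in a group (n = 3 lines). The sources used here name no promoter of the constructs, no copy number and no independent repeats of a line. For the nutlin response of mutant cells the p-values measure the spread among 3 lines, and for tests within or between lines the spread among 5 mutants. All p-values measure only the spread among these libraries, part of which may be technical. In bulk RNA, fewer cells of a type and less RNA per cell cannot be told apart.

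Depth ranged from 5404113 to 10718302 counts in a library. Trp53 was higher in the mean of the 5 mutants than in the control before treatment (log2 2.32 ± 0.22, SE, edgeR adjusted p = 7.82e-06). These are counts of the mouse gene, and whether the added reads come from the constructs was not tested. Cdkn1a, the gene of the p53-induced kinase inhibitor p21, rose with nutlin in mutant cells (log2 6.56 ± 0.58, adjusted p = 0.00600), and under nutlin it was lower in the mutants than in the control (-0.87 ± 0.12, adjusted p = 3.96e-05). The 8 B cell markers summed to 1345 to 1922 CPM in untreated and 1021 to 1605 CPM in nutlin libraries, and were lower under nutlin without overlap in AH47A (1345 to 1431, then 1021 to 1108 CPM) and 287 (1610 to 1786, then 1136 to 1367 CPM). CPM are counts scaled to library size with TMM factors. The 8 T cell markers summed to at most 37.7 CPM, led by Lck in AH47A, and Cd4 was at 0 in every line and treatment. In 287 they summed to 10.6 to 18.2 CPM untreated and to 18.4 to 25.1 CPM under nutlin. There Lck led untreated (mean 7.55 CPM) and Zap70 under nutlin (mean 18.5 CPM), while Cd3g, Cd4 and Cd8a were at 0 in both. The rise of the sum in 287 therefore describes Zap70 and not the list. In AH47A the T cell markers summed to 21.3 to 37.7 CPM untreated and to 16.3 to 24.1 CPM under nutlin, which overlap. In 621 they reached at most 0.986 CPM untreated and 0.739 CPM under nutlin. The 6 myeloid markers, led by Itgam in 287, summed to 17.0 to 24.3 CPM in untreated 287 cells and to 36.03 to 58.3 CPM in the same line under nutlin. They were also higher under nutlin without overlap in AH47A, and in 621 the ranges overlapped. The 3 endothelial markers, of which Pecam1 made up nearly all, summed to 119 to 135 CPM in untreated 287 cells and to 14.4 to 51.1 CPM under nutlin. They were lower under nutlin without overlap in AH47A and 621 too. Kdr was at 0 in every line and treatment but 287 under nutlin, so that this fall describes Pecam1 and not the list. The part of these markers in the results below was not tested.

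Of the 9 genes, 7 have a promoter window in the RefSeq table of GRCm38.p6, which spans 300 bases around a start. Mfng and Hes1 are named only. The windows of Lfng and Notch1 are shown because these genes fell and rose most under nutlin. Each was searched on both strands for GTGGGAA, the core letters bound by RBPJ, and for CACGTG, the E-box bound by MYC. Among 32851 windows of this length GTGGGAA stood in 6.38% and CACGTG in 7.15%. The Lfng window, chr5:140607091-140607390 on the plus strand, held both. They overlap, with CACGTG at positions 139 to 144 and GTGGGAA at 142 to 148, and the latter begins 109 bases before the start. The Notch1 window, chr2:26503773-26504072 on the minus strand, held neither, and so did the windows of Notch2, Rfng, Rbpj, Maml1 and Dtx1. A match in these letters does not show binding. Capitals mark the overlapping pair.
Lfng promoter: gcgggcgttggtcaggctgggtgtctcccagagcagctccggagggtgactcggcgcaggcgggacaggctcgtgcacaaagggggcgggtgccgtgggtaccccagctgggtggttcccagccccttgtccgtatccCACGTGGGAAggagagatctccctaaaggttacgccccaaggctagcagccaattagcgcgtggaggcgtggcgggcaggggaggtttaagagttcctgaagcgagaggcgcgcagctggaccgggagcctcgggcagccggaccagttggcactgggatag
Notch1 promoter: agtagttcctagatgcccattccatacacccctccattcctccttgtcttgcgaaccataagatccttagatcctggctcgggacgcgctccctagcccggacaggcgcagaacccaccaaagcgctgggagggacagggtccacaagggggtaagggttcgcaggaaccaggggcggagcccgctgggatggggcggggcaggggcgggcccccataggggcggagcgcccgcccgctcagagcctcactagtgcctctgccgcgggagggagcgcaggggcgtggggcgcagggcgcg

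Coordinates are those of GRCm38.p6, and the counts are of reads over the exons of the whole gene. The Notch1 gene (NCBI gene 18128) lies on chromosome 2, 26457902 to 26503822, minus strand, and Notch2 (18129) on chromosome 3, 98013538 to 98150367, plus strand. The Fringe genes are Lfng (16848; chromosome 5, 140607341 to 140615545, plus strand), Mfng (17305; chromosome 15, 78755882 to 78773516, minus strand) and Rfng (19719; chromosome 11, 120780745 to 120784251, minus strand). Rbpj (19664) lies on chromosome 5, 53555779 to 53657445, plus strand, and Maml1 (103806) on chromosome 11, 50255634 to 50293131, minus strand. Hes1 (15205) lies on chromosome 16, 30065357 to 30067796, plus strand, and Dtx1 (14357) on chromosome 5, 120680203 to 120711867, minus strand. The sources used here do not say whether counting used strand. Transcripts of the opposite strand overlap 9.76% of the exon bases of Notch1 (0610009E02Rik and Gm13568) and 2.44% of those of Maml1 (Gm26542), and Gm42820 overlaps 5.02% of those of Notch2 on the same strand. Their reads cannot be told apart from those of the genes named. The shares are of the exon bases in GENCODE, which for Notch1 are 14232, beside a gene length of 9489 in the deposited table. Shares of the exons over which reads were counted were not computed.

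Levels were compared between genes only per kilobase of the gene length in the deposited table. In the 18 untreated libraries Mfng had the highest median, 33.7 CPM per kilobase, with libraries between 13.3 and 48.7. Rfng (16.4), Lfng (16.0) and Notch2 (15.8) followed, and their ranges overlapped. Rbpj stood at 11.4, Maml1 at 9.49, Hes1 at 7.93, Notch1 at 4.52 and Dtx1 at 4.04 CPM per kilobase. The ranges of all 8 pairs of neighbours in this order overlapped. Under nutlin the order changed for 2 genes above all. Notch1 moved from the eighth place to the second with a median of 22.1 CPM per kilobase (10.6 to 72.7), and Lfng moved from the third to the eighth with a median of 3.87 CPM per kilobase (1.98 to 15.6).

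**Figure D1:**
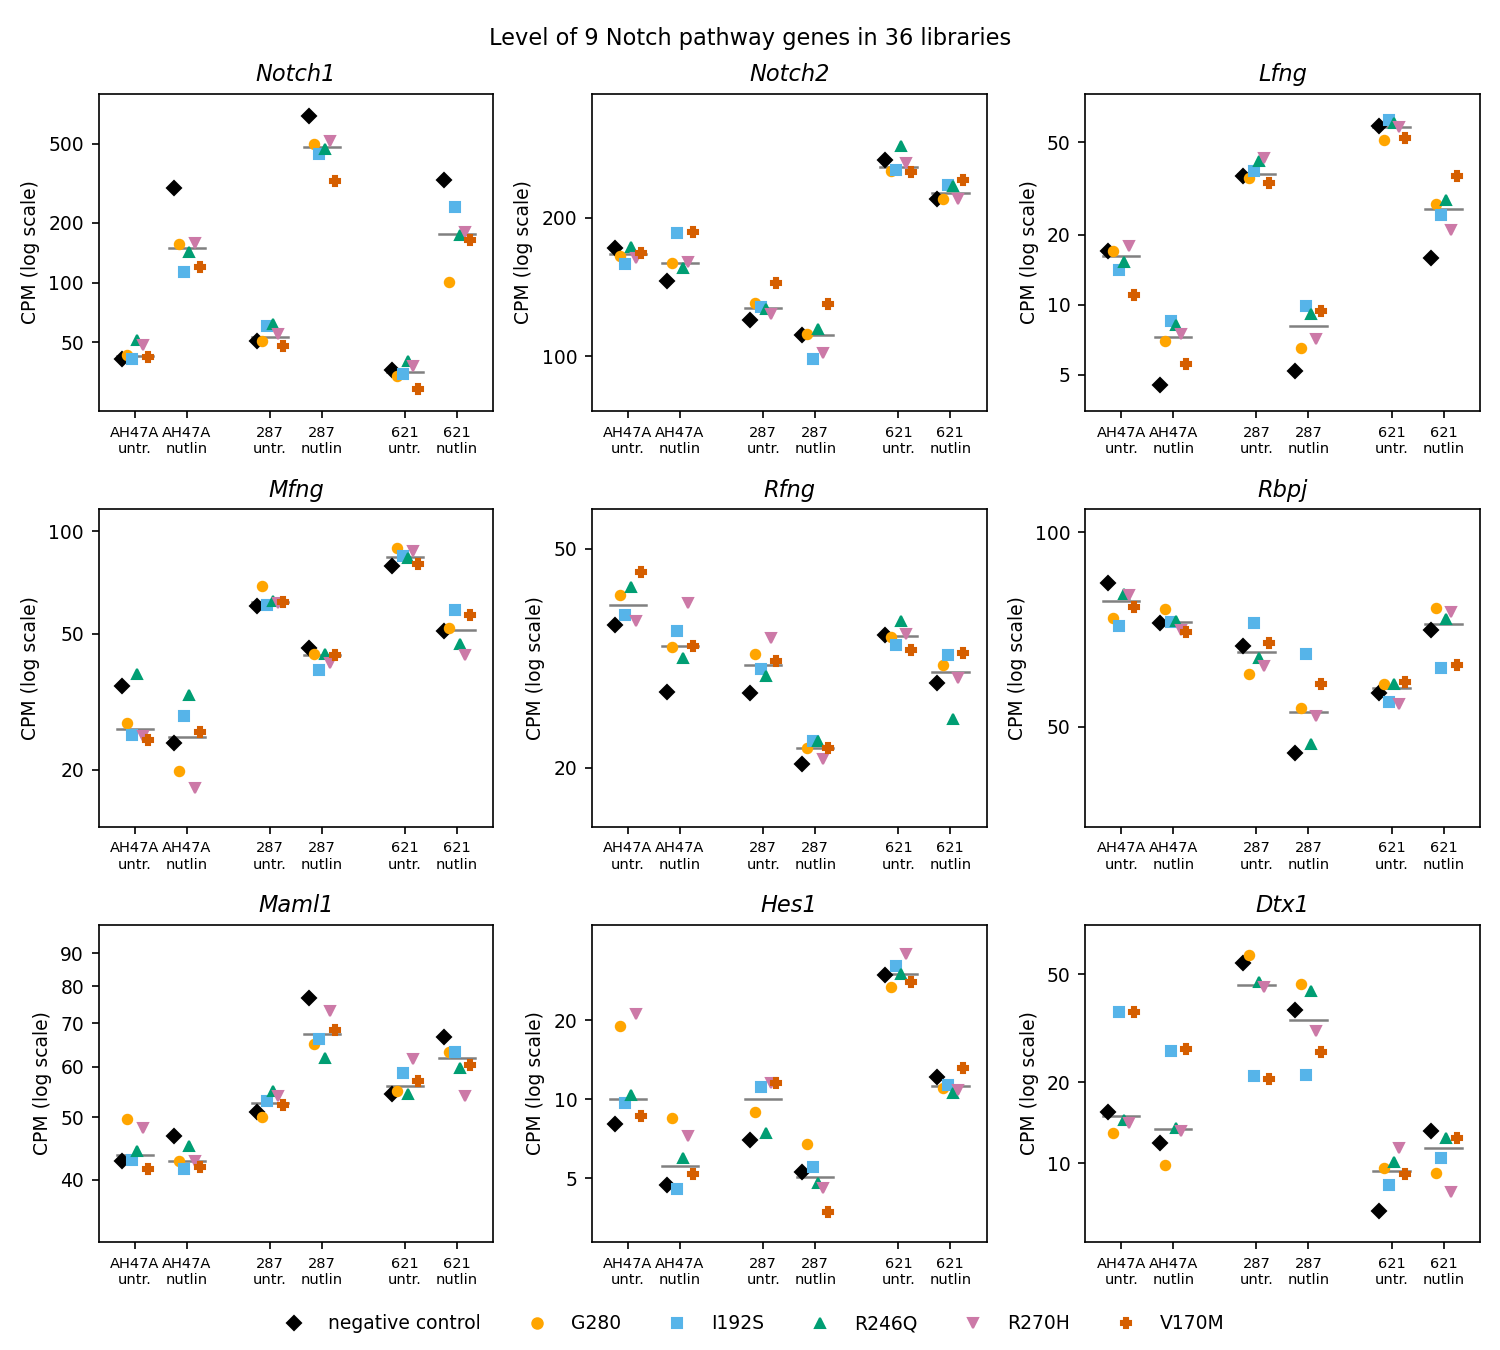
CPM on a log scale of the 9 genes in all 36 libraries, by line and treatment, with 1 symbol for each construct and a grey bar at the median of 6 libraries. In each line the control diamond lies above the mutants for Notch1 under nutlin and below them for Lfng under nutlin.

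Notch1, the receptor of T cell fate, rose with nutlin in every line and with every construct. In AH47A cells it stood at 43.3, 41.4, 51.2, 48.3 and 42.4 CPM untreated with G280, I192S, R246Q, R270H and V170M, and at 157, 113, 143, 158 and 119 CPM under nutlin. In 287 cells the same mutants had 50.7, 60.4, 61.6, 55.3 and 48.0 CPM untreated and 499, 442, 469, 514 and 325 CPM under nutlin. In 621 cells they had 33.8, 34.6, 40.1, 37.9 and 29.2 CPM untreated and 101, 240, 174, 180 and 163 CPM under nutlin. No nutlin library of a line overlapped its untreated libraries, 287 was the highest line under nutlin, and G280 in 621 was the lowest library under nutlin. With the counts of the 5 mutants summed in each line, the rise was 4.93-fold (log2 2.30 ± 0.26, n = 3 lines, edgeR quasi-likelihood test, adjusted p = 0.00459).

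For Notch2, the receptor of marginal zone B cells, no change was called over the lines. It lay between 120 and 286 CPM in untreated and between 98.6 and 242 CPM in nutlin libraries, and the lines kept their order, 621 above AH47A above 287, in both conditions without overlap. Its response was -0.14 ± 0.14 on the log2 scale (adjusted p = 0.533). Per kilobase, Notch1 was below Notch2 in all 18 untreated libraries, at 0.129 to 0.540 of it. Under nutlin Notch1 was above Notch2 in 6 of 6 libraries of 287, in 4 of 6 of AH47A and in 2 of 6 of 621. The other receptors were scarce: Notch3 had at most 17 counts in a library and Notch4 at most 10.

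Lfng, which encodes Lunatic Fringe, fell with nutlin in every line and with every construct. In AH47A cells it stood at 17.1, 14.1, 15.2, 17.9 and 11.0 CPM untreated with G280, I192S, R246Q, R270H and V170M, and at 6.97, 8.53, 8.16, 7.51 and 5.55 CPM under nutlin. In 287 cells the values were 35.01, 37.6, 41.6, 42.9 and 33.5 CPM untreated and 6.53, 9.90, 9.12, 7.14 and 9.42 CPM under nutlin. In 621 cells they were 51.2, 62.3, 60.5, 57.9 and 51.9 CPM untreated and 27.2, 24.2, 28.1, 20.9 and 35.7 CPM under nutlin. The treatments did not overlap within a line, although the 621 mutants under nutlin stayed above the untreated AH47A mutants. With the mutants summed in each line Lfng fell by 1.44 on the log2 scale (± 0.26, n = 3 lines, edgeR adjusted p = 0.0201), to 0.369 of its untreated level. These mutant libraries are not the control libraries in which the fall of Lfng was known, but they come from the same lines.

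For the other Fringe genes no change was called over the lines. Mfng, Manic Fringe, ran from 24.4 to 89.3 CPM untreated and from 17.7 to 58.8 CPM under nutlin. Its response was -0.51 ± 0.16 (adjusted p = 0.0851 with edgeR and 0.0395 with DESeq2). It was lower under nutlin in 5 of 5 mutants of 287 and of 621 and in 3 of 5 of AH47A, where I192S and V170M were higher. Rfng, Radical Fringe, ran from 27.4 to 45.4 CPM untreated and from 20.3 to 39.9 CPM under nutlin, with a response of -0.32 ± 0.16 (adjusted p = 0.213).

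Rbpj and Maml1, whose products meet on the DNA, had no change called over the lines. Rbpj ran from 54.3 to 83.6 CPM untreated and from 45.5 to 76.5 CPM under nutlin, and its response was -0.01 ± 0.16 (adjusted p = 0.987). Maml1 ran from 41.6 to 61.6 CPM untreated and from 41.6 to 76.8 CPM under nutlin, with a response of 0.10 ± 0.15 (adjusted p = 0.678). Within lines Rbpj went opposite ways, as given below.

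Hes1, the classical target and a repressor of transcription, fell with nutlin in every line. In AH47A cells it stood at 19.0, 9.71, 10.4, 21.1 and 8.63 CPM untreated with G280, I192S, R246Q, R270H and V170M, and at 8.49, 4.54, 5.97, 7.23 and 5.18 CPM under nutlin. In 287 cells the values were 8.94, 11.1, 7.43, 11.5 and 11.5 CPM untreated and 6.77, 5.52, 4.79, 4.604 and 3.72 CPM under nutlin. In 621 cells they were 26.7, 32.2, 30.1, 35.5 and 27.9 CPM untreated and 11.0, 11.4, 10.6, 10.8 and 13.1 CPM under nutlin. The treatments did not overlap among the mutants of a line, and 621 was the highest line in both conditions. The fall was to 0.440 of the untreated level (log2 -1.18 ± 0.18, n = 3 lines, edgeR adjusted p = 0.0112), a call that was lost without line 621 (adjusted p = 0.105).

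Dtx1 encodes Deltex1, an E3 ubiquitin ligase that binds the inner part of the receptor. Its level ran from 6.65 to 58.9 CPM untreated and from 7.82 to 46.1 CPM under nutlin, with a response of -0.15 ± 0.17 (adjusted p = 0.578). In all, 3 of the 9 genes passed the test of the nutlin response in mutant cells, against 6.83% of all genes tested. Lfng is among these 3, and its fall in control cells of the same lines was known when it was chosen. The count is therefore partly set by the choice of genes. The median response of the 9 genes was -0.15 on the log2 scale, beside -0.03 over all genes tested. Without the term for cell line none passed (adjusted p = 0.295 for Notch1, 0.539 for Lfng and 0.490 for Hes1). When the 30 mutant libraries counted singly, 6 passed, with Mfng, Rfng and Notch2 added.

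The lines did not respond alike. In AH47A, 4 of the 9 genes passed the test within the line (36.1% of all genes tested did), in 287 it was 8 (69.0%) and in 621 it was 7 (50.2%). Lfng is in each of these counts. These tests and the tests between lines use the 5 mutants as repeats within a line. The F test of a difference in response passed for 7 of the 9 genes, a share to be read against 57.3% of all genes. Notch1 rose by 1.61 ± 0.15 in AH47A, 3.03 ± 0.14 in 287 and 2.29 ± 0.15 in 621 (adjusted p = 1.27e-05), with 2.75 to 3.29 over the mutants of 287 and 1.57 to 2.79 over those of 621, which overlap. Lfng changed by -1.04 ± 0.16, -2.17 ± 0.14 and -1.06 ± 0.12 in the same order (adjusted p = 1.47e-05), and the 5 responses in 287 lay below all 10 of the other lines.

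Rbpj went opposite ways. It fell in 287 (-0.23 ± 0.08), rose in 621 (0.30 ± 0.08) and was at -0.07 ± 0.08 in AH47A (adjusted p = 0.000381). All 5 mutants were lower under nutlin in 287 and all 5 were higher in 621. The call within 287 was lost without R246Q (adjusted p = 0.0567). Maml1 rose in 287 (0.35 ± 0.06) and was at -0.08 ± 0.06 in AH47A and 0.07 ± 0.06 in 621 (adjusted p = 0.000594).

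Mfng fell in 287 (-0.57 ± 0.11) and 621 (-0.73 ± 0.11) and was at -0.18 ± 0.12 in AH47A (adjusted p = 0.0144). Notch2 fell in 287 (-0.23 ± 0.06) and 621 (-0.19 ± 0.06) and was at 0.04 ± 0.06 in AH47A (adjusted p = 0.0152). Rfng fell in each line, by 0.23 in AH47A, 0.52 in 287 and 0.21 in 621 on the log2 scale (adjusted p = 0.0309). Without I192S the tests between lines gave 4 calls, and Mfng (adjusted p = 0.0616), Notch2 (0.105) and Rfng (0.0931) lost theirs. That of Rfng was also lost without G280 (0.107), R270H (0.141) or V170M (0.0617), that of Mfng without V170M (0.0577) and that of Notch2 without R270H (0.0502). Within 621, Rfng lost its call without G280 (0.0571), R246Q (0.228) or R270H (0.0576) and Notch2 without R246Q (0.0502), and within AH47A Rfng lost it without G280 (0.100), R246Q (0.109) or V170M (0.151). For Hes1 (adjusted p = 0.307) and Dtx1 (adjusted p = 0.807) no difference between lines was called.

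**Figure D2:**
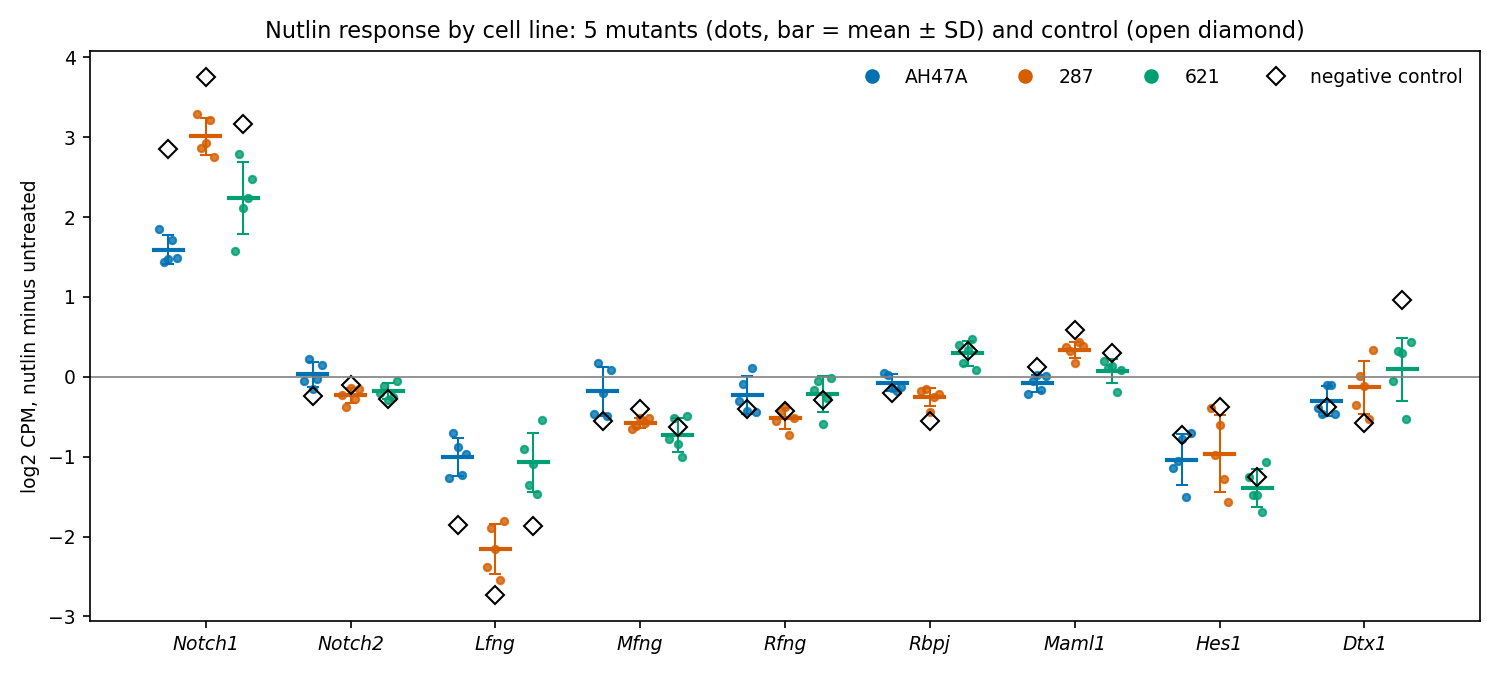
Nutlin minus untreated in log2 CPM for each gene, with 5 mutants per line as dots, their mean ± SD as bars and the control as an open diamond. Notch1 lies above 0 and Lfng and Hes1 below 0 in all lines and constructs, and Rbpj lies below 0 in 287 and above it in 621.

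Before treatment the lines already differed in all 9 genes (F test, edgeR adjusted p from 5.96e-15 for Notch2 to 0.00171 for Notch1), as did 76.6% of all genes tested. Among the Fringe genes Lfng had medians over the 6 constructs of 16.1 CPM in AH47A, 36.6 in 287 and 58.2 in 621, with no overlap between lines. Mfng had the same order, with 26.4, 61.8 and 84.0 CPM and no overlap. Rfng was ordered otherwise, with 39.6 CPM in AH47A, 34.8 in 621 and 30.7 in 287, and the neighbours in that order overlapped. Hes1 had a median of 29.8 CPM in 621, above all libraries of the other lines, which had 10.1 in AH47A and 10.04 in 287 and overlapped. Notch1 had 53.0 CPM in 287, 42.8 in AH47A and 35.5 in 621, with overlap between AH47A and 287, which shared a range near 50 CPM.

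Before treatment no difference between mutants and control was called in any of the 9 genes. The mean of the 5 mutants minus the control gave 0 calls with edgeR and with DESeq2, and 0 genes at an unadjusted p under 0.05, while 0.0162% of all genes were called. Among the single mutants Hes1 in R270H had an unadjusted p under 0.05 (log2 0.74 ± 0.23, edgeR adjusted p = 1.0). The estimates ran from -0.05 for Rbpj to 0.37 ± 0.18 for Hes1, and for Notch1 the 95% interval was -0.27 to 0.40. No gene of the 9 differed among the 5 mutants before treatment (0 calls with edgeR and with DESeq2, 0 at an unadjusted p under 0.05), and 0.0812% of all genes did.

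Under nutlin the mutants and the control differed in Notch1, alone among the 8 genes other than Lfng. Of all genes tested 16.0% differed, and Lfng is left out of this count because its level in these control libraries was known when it was chosen. Notch1 in control cells reached 298 CPM in AH47A, 689 in 287 and 329 in 621, above every mutant of the same line. The mutants were lower by 0.90 on the log2 scale (-0.90 ± 0.13, edgeR adjusted p = 7.59e-05), in 15 of 15 mutant libraries. Lfng in control cells stood at 4.53 CPM in AH47A, 5.17 in 287 and 15.9 in 621, below every mutant of the same line. The mutants were higher by 0.72 ± 0.14, which is a description with no p. Cdkn1a, given above, also stood lower in the mutants than in the control under nutlin, and its part in the Notch1 difference was not tested.

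The nutlin response itself was smaller in the mutants than in the control for Notch1. In control cells Notch1 rose by 2.85 in AH47A, 3.76 in 287 and 3.16 in 621 on the log2 scale, above the highest mutant of each line (1.85, 3.29 and 2.79). Mutants minus control came to -0.97 ± 0.21 (edgeR adjusted p = 0.0128). Lfng in control cells changed by -1.86 in AH47A, -2.73 in 287 and -1.86 in 621, below the lowest mutant of each line (-1.26, -2.55 and -1.46), and mutants minus control came to 0.76 ± 0.18. The value for Lfng is again a description. Over all genes 3.38% passed this test, and Notch1 was the only one of the 8 genes other than Lfng to do so. The Notch1 call of the response difference was lost without AH47A (adjusted p = 0.249) or 287 (0.130). It was also lost without the control's nutlin library of AH47A (0.0514) or its untreated library of AH47A (0.0697) or 287 (0.0654), and in fits without a line-by-treatment term (0.853) or a line term. Its difference under nutlin was lost in the fit without a line-by-treatment term (0.0517) and without a line term (1.00) and held in each leave-out of a line or a control library.

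Each mutant was also set against the same 3 control libraries under nutlin, so that these comparisons share their errors. Notch1 was lower in G280 (-0.97 ± 0.18), I192S (-0.80 ± 0.18), R246Q (-0.85 ± 0.18), R270H (-0.74 ± 0.18) and V170M (-1.14 ± 0.18), and it passed in all 5. Lfng differed by 0.61 ± 0.17, 0.80 ± 0.17, 0.83 ± 0.18, 0.50 ± 0.18 and 0.87 ± 0.17 in the same order. Notch2 was called in V170M alone (0.24 ± 0.07, adjusted p = 0.0267), and whether V170M differs from the other mutants there was not tested. The calls over all genes tested were 10.5% for G280, 2.66% for I192S, 6.06% for R246Q, 3.64% for R270H and 17.6% for V170M. No gene of the 9 differed in response among the 5 mutants (0 calls with edgeR and with DESeq2), and 0.0% of all genes did. At an unadjusted p under 0.05 there was 1, Lfng (0.0348), with mean responses over the 3 lines from -1.74 ± 0.71 (SD, n = 3) in R270H to -1.10 ± 0.64 (SD, n = 3) in V170M.

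**Figure D3:**
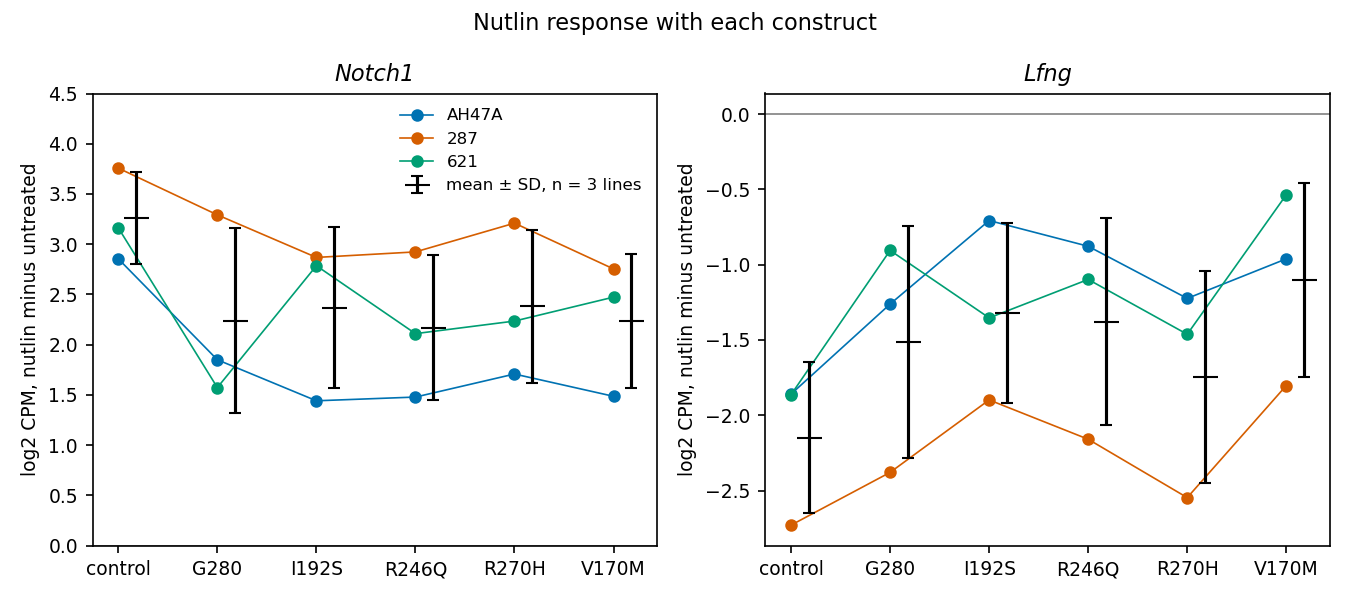
Nutlin minus untreated in log2 CPM of Notch1 and Lfng for the control and each mutant, with 1 coloured point per line and the mean ± SD over 3 lines in black. For both genes the control point of a line lies farther from 0 than its mutants.

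Levels by construct were not ordered alike in the 3 lines, and Dtx1 had the lowest p of the 9 genes for this. In untreated AH47A cells I192S and V170M had 36.2 and 36.5 CPM, and the other 4 constructs had 13.0 to 15.6 CPM. In untreated 287 cells the same 2 mutants were the lowest, at 21.1 and 20.5 CPM beside 44.8 to 58.9 CPM in the other 4. In 621 all 6 constructs lay between 6.65 and 11.4 CPM.

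Both treatments showed the same split of Dtx1. Under nutlin I192S and V170M had 26.2 and 26.4 CPM in AH47A, above 9.89 to 13.5 CPM in the others, and 21.3 and 25.9 CPM in 287, below 30.8 to 46.1 CPM in the others. A test of line by construct was added after this had been seen, with the 2 treatments of a line and construct as its repeats. It called Dtx1 (edgeR adjusted p = 1.37e-07), Hes1 (adjusted p = 0.0118) and Mfng (adjusted p = 0.0477), which is 3 of the 9 genes against 12.8% of all genes tested. With DESeq2 only Dtx1 was called, and Hes1 (0.236) and Mfng (0.225) were not. Each combination of line and construct may be 1 culture, in which case the 2 treatments share it, and construct and culture cannot be told apart.

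Hes1 in untreated AH47A cells was 19.0 CPM with G280 and 21.1 with R270H, and 8.03 to 10.4 CPM with the other 4 constructs. Under nutlin the same 2 mutants were again the highest in AH47A, at 8.49 and 7.23 CPM. Mfng in untreated AH47A cells was 38.03 CPM with R246Q and 35.2 with the control, and 24.4 to 27.4 CPM with the others, but under nutlin the control was at 23.9 CPM, within the range of the others.

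**Figure D4:**
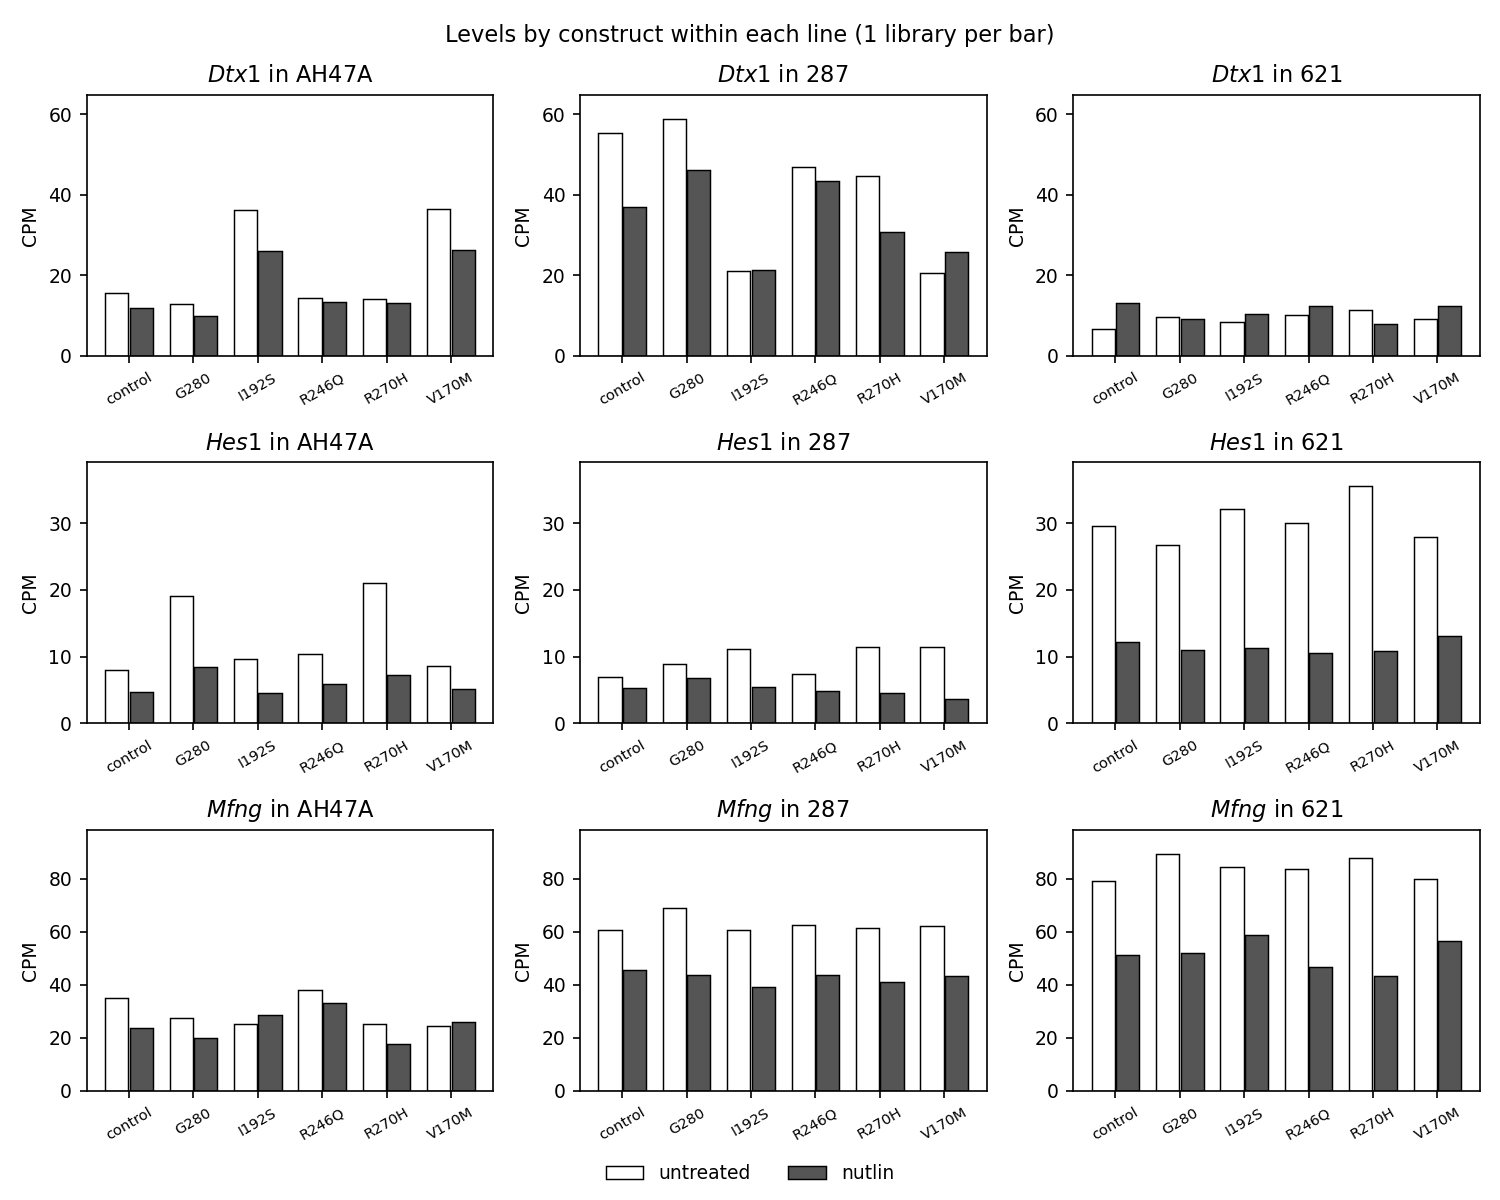
CPM of Dtx1, Hes1 and Mfng with each construct in each line, with 1 library per bar, untreated in white and nutlin in grey. Dtx1 is high with I192S and V170M in AH47A and low with the same 2 in 287.

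The 9 genes correlated to different degrees. Only each line's mean was subtracted, so that the nutlin response given above enters every r. The values do not show genes moving together apart from that response. After subtraction of each line's mean, Lfng and Notch1 correlated at r = -0.95 over the 36 libraries, which share lines and a treatment, and Notch1 and Hes1 at r = -0.78. Lfng and Rfng correlated at r = 0.85 and Notch1 and Maml1 at r = 0.69, whereas for Dtx1 r lay between -0.18 and 0.15 with each of the other 8. By the same measure the genes most like Lfng were Myo1c (0.97), Slc35e1 (0.97) and Zmiz1 (0.97). Those most like Notch1 were Exoc4 (0.99), Ctc1 (0.99) and the gene with NCBI number 100503911 (0.99). B4galnt2, Ampd2 and Nop10 were most like Notch2 (0.82 each), and Slc2a1 (0.89), Ankrd37 (0.88) and Ucp2 (0.88) most like Hes1.

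Other genes of the pathway were described from lists of 73 genes, of which 59 were tested. Of those, 5 passed the test of the nutlin response in mutant cells, 3 up and 2 down, where 6.83% of all genes tested passed. The median response was 0.03 beside -0.03 over all genes. Within lines the calls were 27 in AH47A, 44 in 287 and 32 in 621, in tests that also called 36.1%, 69.0% and 50.2% of all genes. The ligand Dll1, Delta-like 1, rose the most. In the 15 untreated mutant libraries together it had 10 counts and in the 15 nutlin libraries 1116, a ratio of 135 per count sequenced (95% counting interval 73.0 to 282). In the nutlin libraries of the mutants its sum was 881 counts in 287, 199 in AH47A and 36 in 621. In the control Dll1 went from 3 counts to 344 over the 3 lines, and the edgeR estimate in mutants was 6.62 ± 0.50 on the log2 scale. With at most 3 counts in an untreated library, Dll1 passed the filter on low counts only through its nutlin libraries. A fall could not have been called for it, so its rise is a description, although the 5 calls include it. The interval covers counting error only.

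The other ligands that passed the filter gave no call over the lines. Jagged genes Jag1 (-0.29 ± 0.28, adjusted p = 0.513) and Jag2 (-0.45 ± 0.21, adjusted p = 0.184) and the ligand-like gene Dlk1 (-1.19 ± 0.32, adjusted p = 0.0638) had lower estimates under nutlin. Within lines Dlk1 fell in AH47A (-1.42 ± 0.47, adjusted p = 0.0208) and 287 (-0.99 ± 0.26, adjusted p = 0.00186), and Jag2 fell in 621 (-0.77 ± 0.24, adjusted p = 0.0104). Dll3, Dll4 and Dlk2 had at most 10 counts in a library and were not tested. Of 11 tested genes of receptor glycosylation and processing none passed with edgeR, and their median response was 0.12 on the log2 scale. No call was made either for 12 genes of receptor trafficking and turnover (lowest adjusted p = 0.0792, Dtx2) and for 8 nuclear coactivators (lowest adjusted p = 0.110, Crebbp). Within lines the 11 glycosylation and processing genes had 3 calls in AH47A, 7 in 287 and 5 in 621. In the same order the 12 trafficking genes had 7, 10 and 6 calls, and the 8 coactivators had 1, 7 and 3. These counts stand beside 36.1%, 69.0% and 50.2% of all genes tested. Of the 59 tested list genes 2 differed in response between mutants and control, beside 3.38% of all genes tested. They were Mib2, a ubiquitin ligase gene of the trafficking list (-0.61 ± 0.16, edgeR adjusted p = 0.0277), and Ccnd1, a cyclin gene of the target list (0.64 ± 0.13, adjusted p = 0.00811).

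Among 13 tested corepressors Kdm5a, a histone demethylase, rose (0.56 ± 0.14, adjusted p = 0.0484). Within lines the corepressors had 9 calls in AH47A, 9 in 287 and 8 in 621, beside 36.1%, 69.0% and 50.2% of all genes tested. Among 10 tested genes listed as other targets Bcl6, which encodes a transcriptional repressor that germinal centre B cells need, rose (1.47 ± 0.27, adjusted p = 0.0199). Hes6 (-1.15 ± 0.25, adjusted p = 0.0402) and the cyclin gene Ccnd3 (-0.99 ± 0.18, adjusted p = 0.0180) fell. Whether the genes of this list, Hes6 among them, are Notch targets in these cells was not tested. The targets Nrarp (-1.21 ± 0.33, adjusted p = 0.0632) and Hes5 (-1.37 ± 0.44, adjusted p = 0.0912) had lower estimates that were not called.

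**Figure D5:**
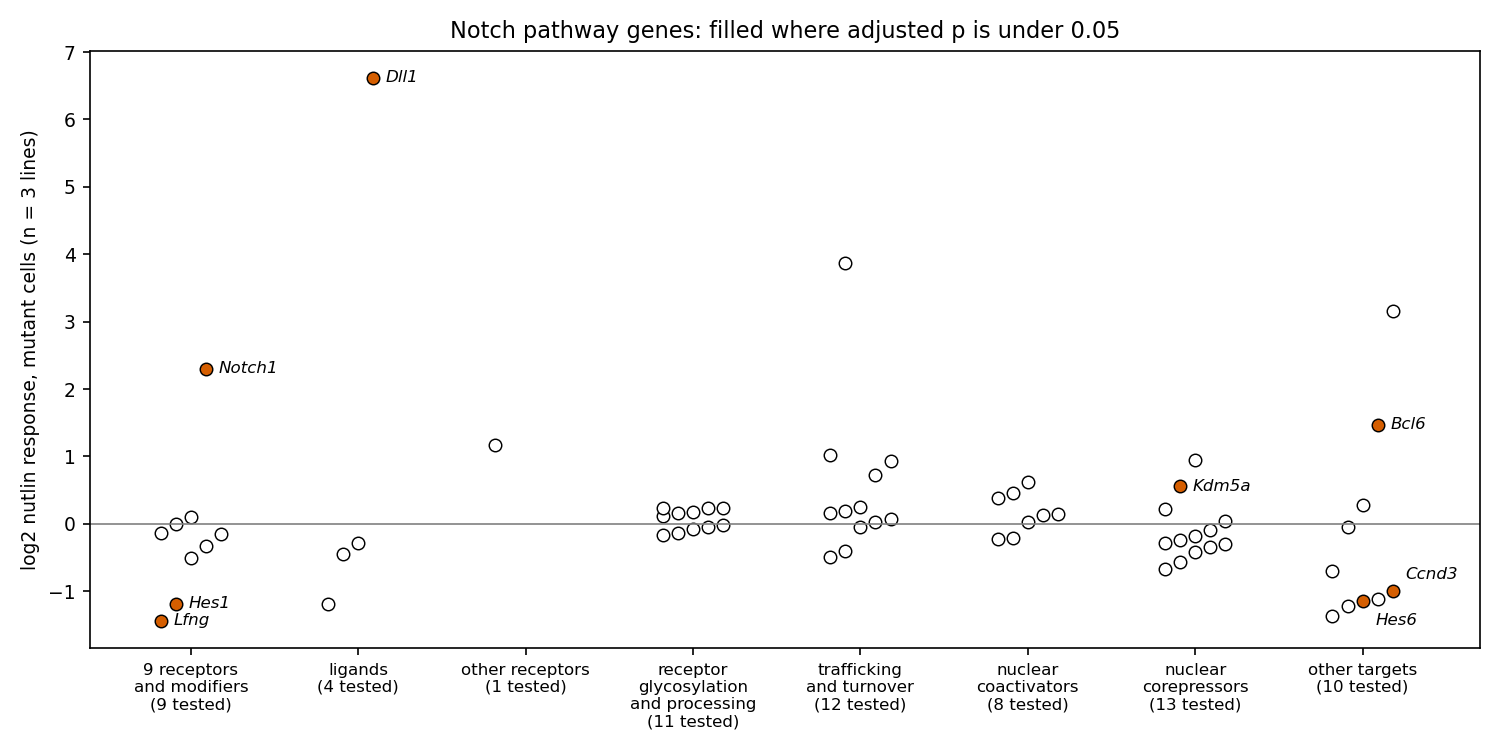
The log2 nutlin response of mutant cells for each tested gene of the 9 and of 7 pathway lists, filled where the adjusted p is under 0.05. Dll1 and Notch1 stand above 0 and Lfng, Hes1, Hes6 and Ccnd3 below it.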

How the data were processed

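The authors deposited an unnormalized read count for each of 27179 mouse genes, and they used featureCounts and bcl2fastq 1.8.4 with builds named mm10 and GRCm38, per the submitters' processing notes. Aligner, annotation and strand setting: not given in the sources used here. Genes were kept by edgeR's filterByExpr with a minimum count of 10, and 12321 were tested. Counts were fitted in R 4.3.3 with edgeR 4.0.16 (TMM, robust quasi-likelihood tests, Benjamini-Hochberg adjustment over all genes tested, calls at 0.05). The nutlin response used mutant counts summed per line and treatment, with line as a block. Differences between lines used the 30 mutant libraries, and mutants were set against the control in a fit of all 36 with line and line-by-treatment terms. Libraries are paired by cell line: their deviations from group means correlated at 0.63 to 0.93 over 198 pairs. Alternatives were DESeq2 1.42.0, RLE factors, library totals, no low count filter, no line block, additive fits, added control libraries and left-out lines, mutants or control libraries. The test of line by construct, the mutants-against-control difference under nutlin and the counts within each line were added after seeing the data. The scripts were tested on simulated data. The members and lists were chosen with earlier results of these data known. All 9 genes are named, and of the pathway lists up to 5 called genes a direction with the largest change and every tested ligand. For 4 genes the 3 genes most like them are named. Mib2 and Ccnd1, and other pathway genes with no call, were named after their values were seen.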

Additional observations from a re-analysis of the deposited data

Results flagged for a closer look

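Mfng had a single library apart in a pair of groups, where the gap to the nearest of the others is divided by the range of the 5 mutants. In untreated 287 cells G280 was highest (68.9 CPM, ratio 0.763), and in untreated AH47A cells R246Q was highest (38.03 CPM, ratio 0.733). The critical value is 0.71. Of 54 such groups 2 stood out, and chance alone gives about 1 in 20.

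The nutlin response differed between the 3 lines by the edgeR F test for Notch1 (adjusted p = 1.27e-05), Lfng (1.47e-05), Rbpj (0.000381), Maml1 (0.000594), Mfng (0.0144), Notch2 (0.0152) and Rfng (0.0309). The Notch1 response differed between mutants and control (adjusted p = 0.0128), and it was smaller in 15 of 15 mutant pairs than in the control of the same line. Levels by construct were called different between lines with edgeR for Dtx1 (adjusted p = 1.37e-07), Hes1 (0.0118) and Mfng (0.0477). That test was added after the split of Dtx1 had been seen, and its repeats are the 2 treatments of a line and construct. With DESeq2 Hes1 (adjusted p = 0.236) and Mfng (0.225) were not called.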

How the results depend on the processing

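No call of the 9 genes reversed under any alternative run. The nutlin response of mutant cells gave 3 calls with Lfng among them, 6 with the 30 libraries counted singly and 2 to 3 without a line. With no replicate block, that is without the pairing by line, it gave 0. The response differed between lines for 7 genes and for 4 to 7 with a mutant left out. Counts against the control include Lfng, whose part is a description and no test. The response difference between mutants and control gave 2 calls (Notch1 and Lfng), 0 in the additive fit, 0 with no replicate block and 0 to 2 with a line or control library left out. Under nutlin the 2 calls became 0 in the additive fit and 0 with no replicate block. For Notch1 alone the call under nutlin held in every leave-out of a line or control library. The line-by-construct test gave 3 calls and 1 with DESeq2. The cause of these shifts was not tested. With library totals Mfng lost its line-by-construct call (adjusted p = 0.0526) and Rfng its call in AH47A (0.115), and with no low count filter Rfng lost its difference between lines (0.0552). Over all genes tested the nutlin response gave 842 calls, 3 with no replicate block, 1836 with DESeq2 and 7719 with single libraries. The response difference gave 416 and 3 without line 287. Depth limits Hes1 and Lfng most, with 28 and 42 counts in their lowest libraries.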

Other observations

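In control cells the response of the genes not called between mutants and control was as follows, on the log2 scale for AH47A, 287 and 621. Hes1 changed by -0.73, -0.38 and -1.26, Mfng by -0.55, -0.41 and -0.63, and Rfng by -0.40, -0.42 and -0.29. Rbpj stood at -0.21, -0.55 and 0.32, with the same signs in 287 and 621 as in the mutants. Maml1 stood at 0.12, 0.59 and 0.30, Notch2 at -0.24, -0.11 and -0.28, and Dtx1 at -0.37, -0.58 and 0.96. Each is 1 pair of libraries a line, with no replicate of its own.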
